A study of Rattus norvegicus with 12 samples.

Results

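The genes described here are 10 genes of vascular endothelium, the cell layer that lines blood vessels: Pecam1, Tek, Emcn, Plvap, Kdr, Flt1, Stab2, Ehd3, Mmrn2 and Id1. A probe set (a group of short probes read as 1 value) was taken when the platform annotation gave it a single symbol and that symbol was one of the 10. This gave 13 probe sets of 20826 with a single symbol, and 10 genes of the 14217 so named. Flt1 has 3 probe sets, Kdr has 2, and each of the other 8 genes has 1.

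The samples are bulk RNA from liver and renal cortex (the outer kidney) of male rats 7–9 weeks old, of a strain labelled F-344 and Wistar-derived. The groups are liver of rats given trichloroethylene (TCE), a chlorinated solvent, liver of control rats, renal cortex of TCE rats and renal cortex of control rats, with 3 arrays in each of the 4 groups. TCE was given by mouth at 16 mg/kg/day for 3 days in corn oil at 5 ml/kg; controls were given corn oil alone, and tissues were taken 24 h after the final dose. Both tissues came from the same 6 rats, and only about 50 mg of each was taken. In bulk tissue, fewer endothelial cells and less RNA per cell cannot be told apart.

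Endothelial cells read vascular endothelial growth factor (VEGF) through the receptor tyrosine kinases encoded by Kdr and Flt1, and angiopoietins through the Tie2 receptor encoded by Tek. The endothelium of liver sinusoids is an open, fenestrated scavenger endothelium that takes up waste molecules through receptors such as stabilin-2, the product of Stab2. Renal cortex holds fenestrated glomerular endothelium, which filters blood beside podocytes, and peritubular capillaries, whose fenestrae are spanned by diaphragms built of the Plvap protein.

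Promoter sequences are shown for 4 genes that the values below turn on. Id1 and Mmrn2 had the smallest p among the members for TCE in renal cortex, and Emcn and Kdr are endothelial surface genes, bright in at least 1 tissue, with opposite tissue differences. Each is the window of RefSeq (rat build GRCr8) from 250 bases before to 50 after the annotated start, written 5′ to 3′ on the gene's strand, which is plus for all 4. Capitals mark AGGAAG, a sequence that holds the ETS core GGAA, or CTTCCT when on the other strand. They also mark the TATA box TATAAA, or TTTATA when on the other strand, and the CCAAT box, which is ATTGG on the other strand.
Id1, chr3:161671314-161671613: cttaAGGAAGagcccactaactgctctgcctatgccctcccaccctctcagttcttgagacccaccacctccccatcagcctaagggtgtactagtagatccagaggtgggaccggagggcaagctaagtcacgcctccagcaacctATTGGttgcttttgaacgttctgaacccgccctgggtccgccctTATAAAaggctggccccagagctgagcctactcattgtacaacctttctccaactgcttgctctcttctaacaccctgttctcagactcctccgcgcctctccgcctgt
Mmrn2, chr16:9711955-9712254: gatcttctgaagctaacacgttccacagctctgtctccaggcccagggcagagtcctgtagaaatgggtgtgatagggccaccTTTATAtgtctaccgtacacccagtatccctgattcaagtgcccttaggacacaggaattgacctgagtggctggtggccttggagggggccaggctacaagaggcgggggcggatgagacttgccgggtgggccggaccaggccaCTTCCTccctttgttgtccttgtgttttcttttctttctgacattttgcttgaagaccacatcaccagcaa
Emcn, chr2:228564289-228564588: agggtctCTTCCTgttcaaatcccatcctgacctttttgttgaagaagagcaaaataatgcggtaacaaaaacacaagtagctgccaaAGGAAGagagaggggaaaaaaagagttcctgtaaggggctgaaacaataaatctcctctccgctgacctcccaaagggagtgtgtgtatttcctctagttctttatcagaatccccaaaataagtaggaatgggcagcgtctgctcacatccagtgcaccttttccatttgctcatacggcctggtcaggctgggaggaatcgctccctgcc
Kdr, chr14:32571813-32572112: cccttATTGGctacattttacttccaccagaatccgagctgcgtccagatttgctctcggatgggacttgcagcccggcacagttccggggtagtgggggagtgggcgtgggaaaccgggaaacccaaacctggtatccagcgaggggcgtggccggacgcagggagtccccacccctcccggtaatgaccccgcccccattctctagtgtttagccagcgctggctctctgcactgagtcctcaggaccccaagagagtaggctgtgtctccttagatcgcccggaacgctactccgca

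The RefSeq promoter table held 8 of the 10 genes, all but Pecam1 and Tek. GGAA is the core bound by the ETS factors that many endothelial genes use, and only the longer AGGAAG was searched for. AGGAAG was present in 7 of the 8 windows and in 34.5% of 33469 promoter windows of the same length, searched on both strands. GGAA with other letters around it was not counted. Id1 had AGGAAG at position -246 from the start site, Mmrn2 at -21 and Emcn at -162 and -243. The Kdr window had no AGGAAG, though it holds GGAA. A TATA box was found in 4 of the 8 windows and in 14.2% of all windows; in Id1 it began at -59, and in Mmrn2 it lay on the other strand at -167. The CCAAT box was found in 3 of 8 windows, against 37.5% of all. GGGCGG, the GC box, was found in 6 of 8 windows, against 33.1% of all. GGCGCC, a GC-rich element bound by SMAD factors, was found in 1 of 8, against 11.0% of all, and not in Id1; CACGTG, an E-box, was in 0 of 8, against 6.4% of all. A match describes these letters in this window and is no evidence of a bound site.

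The values are log2 units of array intensity as the authors deposited them, with array medians of 3.51 to 3.54 in liver and 3.88 to 3.96 in renal cortex, and a lowest value in the table of 2.17. Some hepatocyte transcripts were present on renal cortex arrays to different degrees. Alb, serum albumin, stood at 10.96, 4.36 and 6.31 on the TCE arrays of renal cortex and at 9.89, 12.80 and 7.84 on the control arrays, against 16.29 to 16.38 in liver. Control replicate 2 and TCE replicate 1 were the highest of these for Alb. TCE values of renal cortex are also given without both of them where they moved by over 1.5 times. Of the other hepatocyte genes read, Ttr, Serpina1 and Cps1 were also highest on control replicate 2 (8.21, 6.35 and 6.15). Serpina1 and Cps1 read higher on control replicate 1 (3.66 and 3.90) than on TCE replicate 1 (3.14 and 2.95). Apoa1 stayed at 2.23 to 2.44 on every renal cortex array, and Cyp2e1 at 11.40 to 12.69. Levels of different probe sets are not compared with each other, since each has its own brightness.

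The check of tissue labels by endothelial genes was mixed. Emcn, Plvap, Tek, Pecam1 and Kdr, all expressed by capillary endothelium, were well above the lowest value in renal cortex. Stab2 was bright on all 6 liver arrays and dim on all 6 renal cortex arrays. Ehd3, an endocytic recycling gene used as a marker of glomerular endothelium in mouse, was dim in renal cortex, where its probe set read 2.42 to 2.63. It read higher in liver than in renal cortex, against its label as a renal endothelial gene. All 3 Flt1 probe sets lay near their lowest value on every array, so Flt1 has no usable level here.

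**Figure D1:**
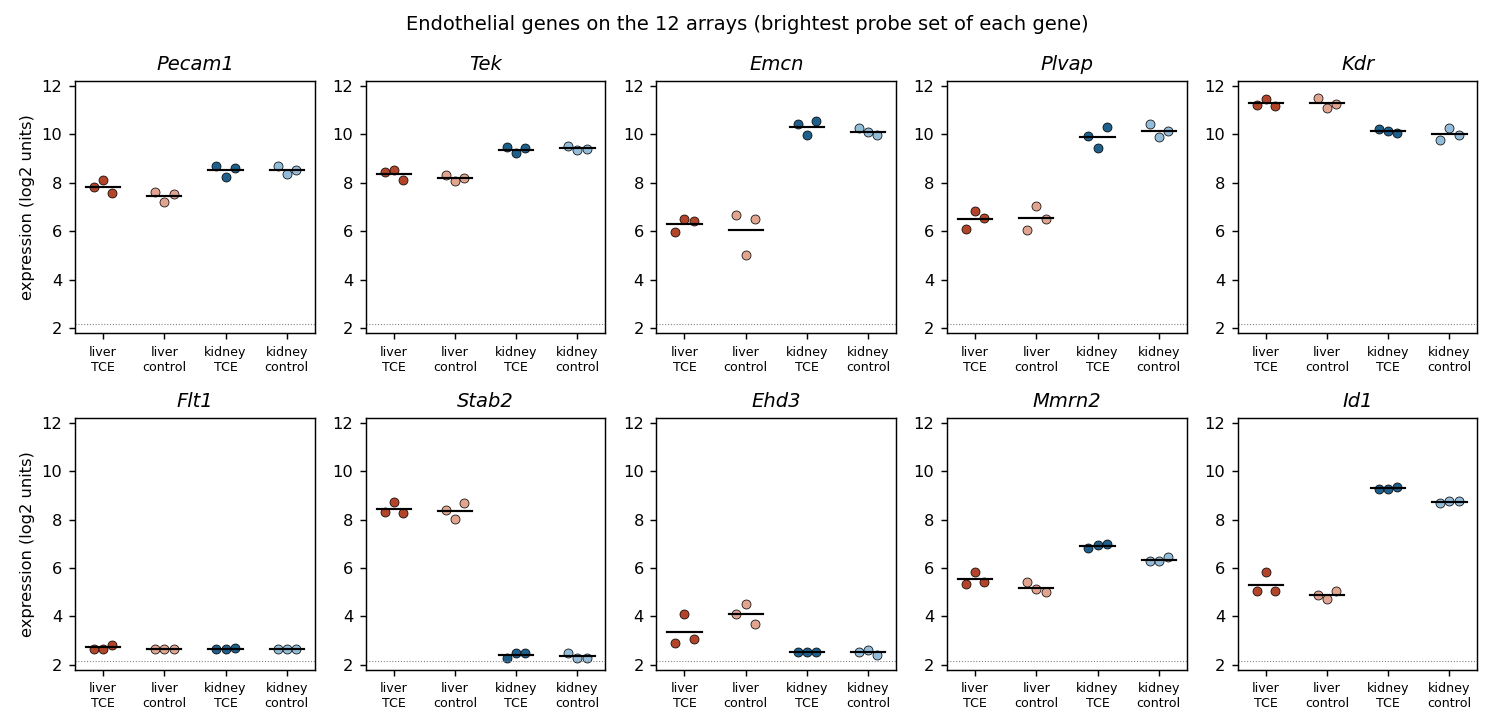
Expression of the 10 genes (log2 units, vertical axis) on each of the 12 arrays, with the brightest probe set of each gene; points are arrays, bars are means of 3 arrays, and the dotted line is the lowest value of the table, 2.17. Stab2 is bright in liver alone, Emcn, Plvap and Id1 stand far higher in renal cortex, and Flt1 is dim in all groups.

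Control liver was first set against control renal cortex, which shows where each gene is read best. Of the 10 genes tested, 9 passed an adjusted p of 0.05 (limma, Benjamini-Hochberg over 18609 probe sets), 3 higher and 6 lower in liver. Over all probe sets 61.9% passed, 26.8% higher and 35.1% lower, so a tissue difference as such was common. Stab2 and Ehd3, 2 of the 3 higher genes, lay below the filter on low values (2.553) in control renal cortex and were tested only through liver, so their calls were built in. Of the 8 genes above it in both tissues, 1 was higher and 6 were lower in liver, against 61% called of the 17188 such probe sets. The median of the 10 differences was -1.11 log2 units, against -0.0715 over all probe sets tested. Among the calls over all probe sets 43.3% were higher in liver, a share that became 54.2% after quantile normalization and 67% after centring each array on its median, which shifted every difference by 0.41. The 9 member calls kept their direction under both.

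Pecam1 and Tek were lower in liver. Pecam1, the adhesion molecule CD31 at endothelial junctions, read 7.63, 7.21 and 7.55 in control liver and 8.68, 8.35 and 8.54 in control renal cortex. The groups did not overlap, as held for 9 of the 10 genes and for 71.2% of all probe sets, and Pecam1 was lower in liver by 2.08-fold (log2 difference -1.06 ± 0.15 SE, adjusted p = 0.00157, limma). Tek read 8.30, 8.06 and 8.20 in control liver and 9.53, 9.35 and 9.40 in control renal cortex. Its difference of -1.24 ± 0.10 log2 units (adjusted p = 0.000132, limma) was near that of Pecam1.

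Emcn, Plvap and Id1 differed far more. Emcn, which encodes the capillary and venous sialoglycoprotein endomucin, read 6.68, 5.01 and 6.50 in control liver and 10.25, 10.12 and 9.98 in control renal cortex. Liver was 16.6-fold lower (log2 difference -4.06 ± 0.46 SE, adjusted p = 0.000664, limma), and liver control replicate 2 was the lowest of all arrays. Plvap read 6.04, 7.03 and 6.51 in control liver and 10.42, 9.90 and 10.13 in control renal cortex, 12.3-fold lower in liver (adjusted p = 0.000138, limma). Id1, a helix-loop-helix inhibitor whose transcription is a direct response to bone morphogenetic protein (BMP) signals, read 4.90, 4.72 and 5.06 in control liver and 8.67, 8.74 and 8.78 in control renal cortex. It was lower in liver by a log2 difference of -3.84 ± 0.11 SE (adjusted p = 2.47e-06, limma). Because 3 of the 6 liver arrays repeat 1 value, 5.06, its liver level may not be resolved, and no fold is given; Id1 is made by many cell types, so its value is not endothelial alone.

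Mmrn2, which encodes the endothelial matrix protein multimerin-2, read 5.42, 5.13 and 5.00 in control liver and 6.29, 6.27 and 6.44 in control renal cortex. Its 2.22-fold lower value in liver (log2 difference -1.15 ± 0.13 SE, adjusted p = 0.00066, limma) was close in size to those of Pecam1 and Tek.

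Kdr, Stab2 and Ehd3 were higher in liver. Kdr, which encodes the main signalling VEGF receptor, read 11.48, 11.09 and 11.25 in control liver and 9.76, 10.25 and 9.97 in control renal cortex. Liver was 2.43-fold higher (log2 difference 1.28 ± 0.16 SE, adjusted p = 0.00112, limma), on a probe set that is bright in both tissues. Its second probe set read 2.32 on 10 of the 12 arrays and could not be compared.

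Stab2 read 8.38, 8.02 and 8.69 in control liver and 2.50, 2.27 and 2.27 in control renal cortex. The kidney values repeat on several arrays and lie near the lowest value of the table, so the difference of 6.02 ± 0.18 log2 units is set by the liver level and gives no measured fold. Ehd3 read 4.12, 4.49 and 3.69 in control liver and 2.55, 2.63 and 2.42 in control renal cortex, a difference of 1.57 ± 0.21 (adjusted p = 0.00139, limma). Between liver and renal cortex of TCE rats, Ehd3 differed by 0.82 and was no longer called (adjusted p = 0.0784, limma). Flt1 gave a difference of 0.00 (adjusted p = 1, limma), from values at the lowest level of its probe set in both tissues.

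**Figure D2:**
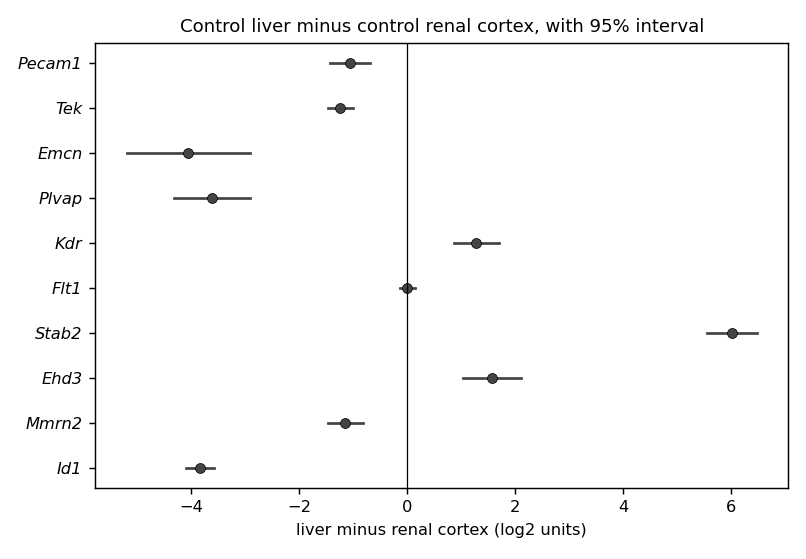
Control liver minus control renal cortex (log2 units, horizontal axis) for each gene, with limma's 95% interval. Stab2, Ehd3 and Kdr lie right of 0, Flt1 lies on it, and the other 6 lie left, with Emcn, Plvap and Id1 beyond -3.

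Lists of genes of vessel types and of related pathways were read by the same comparison. In bulk tissue their values need not come from endothelium alone. Over all probe sets, 26.8% were higher and 35.1% lower in liver at an adjusted p of 0.05 (limma). Of 13 tested sinusoidal genes, 8 were higher and 1 lower in control liver, with a median of 2.85 log2 units. Of the 8, Fcgr2b, Gata4 and Bmp2 were below the filter in control renal cortex and were tested only through liver. The 10 genes above it in both tissues had 5 higher and 1 lower, with a median of 1.76. These calls were 60% of the 10, against 61% of all such probe sets. Among the 8 were the scavenger receptor Stab1 (2.85 ± 0.33 SE, adjusted p = 0.000698, limma) and the hyaluronan receptor Lyve1 (3.89 ± 0.19). The orphan receptor Gpr182 differed by 2.68 ± 0.22, and Bmp2, a BMP ligand, by 5.28 ± 0.13 from kidney values near the lowest. Maf, the exception, was lower in liver by -1.47 ± 0.28; it is named after its value was seen.

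Of 20 tested pan-endothelial genes, 3 were higher and 8 lower in liver, with a median of -0.315. All 20 were above the filter in both tissues, and 55% were called, against 61% of all such probe sets. Tie1, the orphan partner receptor of Tie2, was lower by -0.64 ± 0.21 (adjusted p = 0.0413, limma) and Eng, the BMP and TGF-beta co-receptor endoglin, was higher by 0.83 ± 0.12 (adjusted p = 0.00216, limma). Of 9 renal endothelial genes, 2 were higher and 4 lower in liver, median -0.952, or -0.537 without Aplnr, which was tested only through renal cortex. Plat, which encodes tissue plasminogen activator, was among the lower ones at -3.02 ± 0.08, while Nostrin, a binder of endothelial nitric oxide synthase, was higher at 1.34 ± 0.15. Of the 8 renal endothelial genes above the filter in both tissues, 75% were called, against 61% of all such probe sets.

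The VEGF and angiopoietin list had 3 of 14 higher and 6 of 14 lower in liver, median -0.38. All 14 were above the filter in both tissues, and 64.3% were called, against 61% of all such probe sets. The VEGF list is thus near that share. Its VEGF co-receptor Nrp1 was lower by -2.92 ± 0.11. The ligand Vegfa (-0.27, adjusted p = 0.117, limma) and Angpt2 (-1.39, adjusted p = 0.0681, limma) were not called. The BMP, SMAD and Id list had 5 of 20 higher and 11 of 20 lower, median -0.644. Bmp2 and Hamp, of the 5, were tested only through liver. Of the 18 genes of this list above the filter in both tissues, 77.8% were called, against 61% of all such probe sets. Id4 was lower in liver, as Id1 was (-1.01 ± 0.23, adjusted p = 0.0118, limma). Id2 (-0.78, adjusted p = 0.0954), Id3 (0.47, adjusted p = 0.057) and the ligand Bmp6 (0.42, adjusted p = 0.0573) were not called by limma. The list of Ehd and caveolar genes had 1 of 8 higher and 7 of 8 lower, median -1.19. All 8 were above the filter in both tissues, and 100% were called, against 61% of all such probe sets. The members of this list closest to Ehd3, namely Ehd1 (-0.61), Ehd2 (-0.93) and Ehd4 (-2.42), were each lower in liver at an adjusted p of 0.05 by limma.

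TCE was next set against control in renal cortex. Of the 13 probe sets, 9 (1 for each of 9 genes) passed the filter, and 0 passed an adjusted p of 0.05, as for all 18609 probe sets, of which 0% passed (limma). At an unadjusted p of 0.05 there were 2, Mmrn2 and Id1, both higher with TCE, against 14.5% of all probe sets, with 8% higher. The same 2 had groups that did not overlap, as did 19.5% of all, with 10.7% higher. The 9 differences had a median of 0.0042 log2 units, against 0.0023 over all probe sets, with 6 above and 3 below 0. That median is the value of Flt1, which has no usable level, and the dim Ehd3 (0.0032) also counts as above 0. It therefore does not describe the readable genes, which ran from -0.2471 (Plvap) to 0.5853 (Mmrn2).

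Mmrn2 read 6.84, 6.93 and 6.99 in TCE renal cortex and 6.29, 6.27 and 6.44 in control renal cortex. Every TCE array stood above every control array. The difference was 0.59 ± 0.08 log2 units (95% interval 0.39 to 0.78), or 1.5-fold, with an adjusted p of 0.178 (limma). Id1 read 9.27, 9.28 and 9.35 in TCE renal cortex and 8.67, 8.74 and 8.78 in control renal cortex. These groups did not overlap either, and the difference was 0.57 ± 0.06 log2 units (95% interval 0.42 to 0.71), or 1.48-fold, with an adjusted p of 0.173 (limma). Id1 ranked 10 and Mmrn2 ranked 36 of all probe sets by p, and neither is a call after adjustment.

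Both differences remained of like size without any 1 array, at 0.5358 to 0.5912 for Id1 and 0.5504 to 0.6412 for Mmrn2. Without both arrays highest in Alb they were 0.59 for Id1 and 0.59 for Mmrn2, each with an adjusted p of 0.495 (limma). Over all alternatives the adjusted p was 0.119 to 0.495 for Id1 and 0.127 to 0.495 for Mmrn2.

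Podocyte markers also stood higher on the TCE arrays of renal cortex. The mean of the 8 podocyte genes on the array (of 10 listed) was 7.887 to 7.985 in TCE renal cortex and 7.426 to 7.494 in control renal cortex, with none at the lowest value; 7 of the 8 stood higher with TCE, with a median of 0.584 against 0.0023 over all probe sets. Of the 8, 4 were higher at an unadjusted p of 0.05, against 8% of all probe sets, and 0 passed adjustment (limma). The mean of 7 macrophage markers of 9 listed was 4.66 to 4.895 in TCE renal cortex and 4.431 to 4.666 in control renal cortex, with Cd163 near the lowest value in both and Clec4f in controls. All 6 macrophage markers tested stood higher with TCE, with a median of 0.26. The 3′ minus 5′ gap of the Actb control probe sets, which reads RNA quality, was 4.31 ± 0.09 log2 units in TCE renal cortex and 4.48 ± 0.08 in control renal cortex (SD, n = 3 each), groups that did not overlap, with p = 0.1 by exact two-sided permutation, the lowest that 3 against 3 arrays allow. Whether podocyte or macrophage content or RNA quality bears on Mmrn2 and Id1 was not tested.

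The other renal cortex values overlapped between groups. Emcn read 10.42, 9.96 and 10.54 in TCE renal cortex and 10.25, 10.12 and 9.98 in controls (0.19 ± 0.17, adjusted p = 0.641, limma). Plvap read 9.94, 9.45 and 10.32 in TCE renal cortex and 10.42, 9.90 and 10.13 in controls (-0.25 ± 0.26, adjusted p = 0.676, limma). Kdr read 10.22, 10.13 and 10.05 in TCE renal cortex and 9.76, 10.25 and 9.97 in controls (0.14 ± 0.14, adjusted p = 0.657, limma). For all 3 capillary genes the TCE and control arrays overlapped. Without both arrays highest in Alb, Plvap differed by -0.39 and Kdr by 0.22.

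Pecam1 read 8.70, 8.25 and 8.60 in TCE renal cortex and 8.68, 8.35 and 8.54 in controls. Its difference of -0.01 ± 0.15 had a 95% interval of -0.39 to 0.37. Tek read 9.46, 9.23 and 9.42 in TCE renal cortex and 9.53, 9.35 and 9.40 in controls, a difference of -0.05 ± 0.09 with an interval of -0.28 to 0.17. A change of Tek or Pecam1 as large as that measured for Id1 lies outside these intervals. Without both arrays highest in Alb the differences were -0.19 for Pecam1 and -0.14 for Tek. Ehd3 (0.00 ± 0.07) and Flt1 (0.00 ± 0.04) were dim in both groups, and Stab2 did not pass the filter.

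In liver, 11 of the 13 probe sets passed the filter, covering all 10 genes. None passed an adjusted p of 0.05, as for all 18610 probe sets, of which 0% passed (limma), and 0 had an unadjusted p under 0.05, against 13.8% of all. None had groups that did not overlap, against 19.2% of all. The median of the 11 differences was 0.079 log2 units, against 0.0203 over all probe sets, with 8 above and 3 below 0.

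Id1 read 5.06, 5.84 and 5.06 in TCE liver and 4.90, 4.72 and 5.06 in control liver; 3 of these arrays share 1 value. TCE replicate 2 stood apart, and the difference of 0.43 ± 0.25 (adjusted p = 0.492, limma) was 0.17 without it. Mmrn2 read 5.35, 5.83 and 5.41 in TCE liver and 5.42, 5.13 and 5.00 in control liver (0.35 ± 0.18, adjusted p = 0.445, limma). The same TCE array was the highest again, and the difference was 0.20 without it.

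Pecam1 read 7.84, 8.13 and 7.57 in TCE liver and 7.63, 7.21 and 7.55 in control liver (0.38 ± 0.19, adjusted p = 0.427, limma). Without TCE replicate 2 its difference was 0.24, and the groups overlapped with or without that array. Tek read 8.43, 8.54 and 8.10 in TCE liver and 8.30, 8.06 and 8.20 in control liver, a difference of 0.17 ± 0.14 (adjusted p = 0.632, limma). For Tek, too, the groups overlapped.

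Ehd3 had the lowest liver difference of the members. It read 2.88, 4.12 and 3.06 in TCE liver and 4.12, 4.49 and 3.69 in control liver, so TCE replicate 2 overlapped with the controls. The difference was -0.75 ± 0.39 (95% interval -1.75 to 0.25, adjusted p = 0.456, limma). Without TCE replicate 2 it was -1.13, with an adjusted p of 0.339. With a base near the low end of the scale, the size of this difference is uncertain.

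Stab2, the sinusoidal scavenger receptor, read 8.31, 8.73 and 8.28 in TCE liver and 8.38, 8.02 and 8.69 in control liver. Its difference of 0.08 ± 0.22 had a 95% interval of -0.47 to 0.62, so with 3 arrays a group a change anywhere within these bounds remains compatible with the values. Kdr read 11.23, 11.45 and 11.16 in TCE liver and 11.48, 11.09 and 11.25 in control liver (0.00 ± 0.13, interval -0.34 to 0.34). For both genes the TCE and control arrays overlapped.

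Emcn read 5.97, 6.49 and 6.41 in TCE liver and 6.68, 5.01 and 6.50 in control liver. Its difference of 0.23 ± 0.48 was -0.30 without control replicate 2, the low array. Plvap read 6.10, 6.83 and 6.53 in TCE liver and 6.04, 7.03 and 6.51 in control liver, a difference of -0.04 ± 0.31 that was 0.21 without control replicate 2. Without TCE replicate 1, Plvap differed by 0.15, so leaving out either array turned its sign. The second Kdr probe set differed by -0.22 ± 0.22 through control replicate 1, at 3.05, and Flt1 by 0.06 ± 0.07 through TCE replicate 3, at 2.84.

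**Figure D3:**
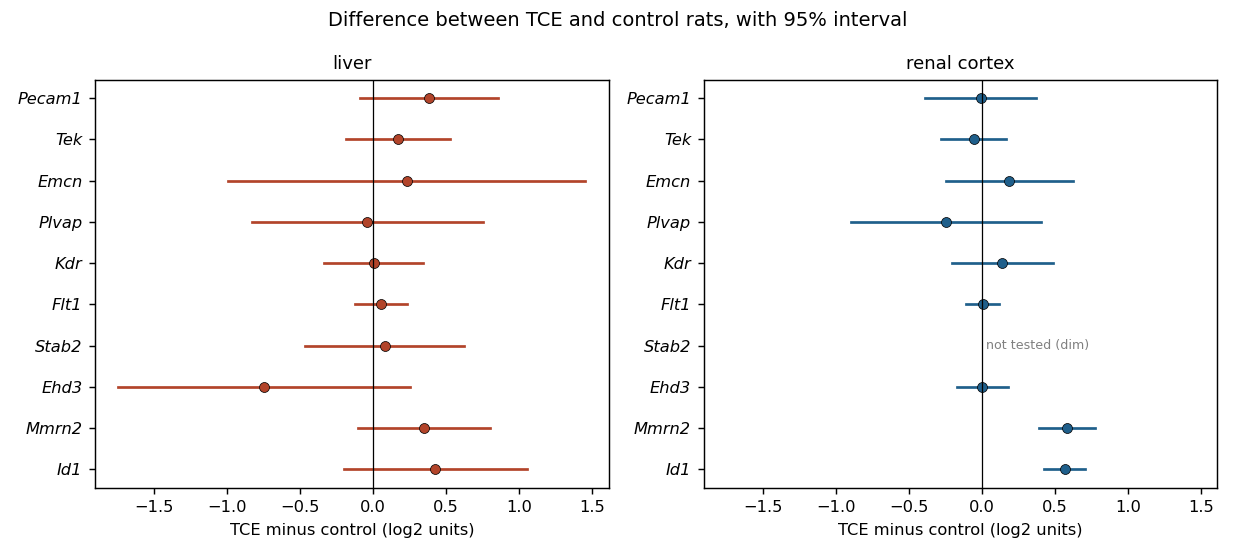
TCE minus control (log2 units, horizontal axis) in liver (left) and renal cortex (right) for each gene, with limma's 95% interval. Mmrn2 (0.59) and Id1 (0.57) in renal cortex are the differences whose interval lies off 0, though neither passed adjustment; in liver all intervals include 0.

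The effect of TCE in liver was then set against that in renal cortex, for which 10 genes were tested and 0 differed at an adjusted or unadjusted p of 0.05, against 1.06% and 17.7% of all probe sets. The differences between effects, liver minus renal cortex, were -0.75 to 0.39. Mmrn2 had -0.24 ± 0.20 (adjusted p = 0.589, limma) and Id1 had -0.14 ± 0.26 (adjusted p = 0.826, limma). The Id1 and Mmrn2 effects were thus not shown to differ between tissues.

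For each gene the order of the 4 group means was read from all arrays. In Id1 and Mmrn2, TCE renal cortex was highest, then control renal cortex, then TCE liver and control liver. For Id1 these means were 9.30 ± 0.04, 8.73 ± 0.06, 5.32 ± 0.45 and 4.89 ± 0.17 (SD, n = 3 each), and both liver groups overlapped. For Mmrn2 they were 6.92 ± 0.08, 6.33 ± 0.10, 5.53 ± 0.26 and 5.18 ± 0.22. Pecam1, Tek, Emcn and Plvap had both renal cortex groups above both liver groups, with TCE and control overlapping inside each tissue. Kdr and Stab2 had the opposite order of tissues, also with TCE and control overlapping, as did Ehd3. Flt1 had no order, being dim in all groups.

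The wider lists were read in the same TCE comparisons, in which 0 genes passed an adjusted p of 0.05 in any list in liver or renal cortex. Of all probe sets, 13.8% in liver and 14.5% in renal cortex had an unadjusted p under 0.05 (limma). Groups did not overlap for 19.2% in liver and 19.5% in renal cortex. In liver, 15 of 20 pan-endothelial genes stood above and 5 below 0, with a median of 0.0901, against 0.0203 over all probe sets. Ecscr, an endothelial surface regulator of cell movement, read 5.58, 5.87 and 6.10 in TCE liver and 5.38, 5.38 and 5.37 in control liver (0.47 ± 0.14, adjusted p = 0.275, limma). The control values nearly repeat, so the level of Ecscr there may not be resolved. Ecscr and Rasip1 (0.86, named after its value was seen) made up the 2 of 20 with an unadjusted p under 0.05, against 13.8% of all probe sets (limma). In renal cortex the list had 9 above and 11 below 0, with a median of -0.0161. Cldn5, a tight junction protein of endothelium, stood higher with TCE (0.31 ± 0.10, adjusted p = 0.273) and Arhgef15, an endothelial exchange factor, lower (-0.36 ± 0.14, adjusted p = 0.326), by limma. Eng differed by -0.07 ± 0.13 in liver and by -0.40 ± 0.19 in renal cortex, and Sox7, an endothelial transcription factor, by -0.08 ± 0.09 in liver.

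Of the 14 sinusoidal genes tested in liver, 9 stood above and 5 below 0, with a median of 0.0874. Stab1 differed by 0.10, Lyve1 by 0.08 and Bmp2 by -0.01, near the Stab2 value, and Gpr182 by 0.38 ± 0.25. The scavenger receptor Cd36 stood lower with TCE at 6.01, 6.42 and 6.80 in TCE liver and 7.08, 6.78 and 7.31 in control liver, where the groups overlapped (-0.65 ± 0.24, adjusted p = 0.344, limma). In renal cortex, 3 of 11 stood above and 8 below 0, with a median of -0.134. There Cd36 read 7.21, 6.88 and 7.78 in TCE renal cortex and 6.76, 6.75 and 6.71 in controls, groups that did not overlap (0.55 ± 0.23, adjusted p = 0.37, limma). Stab1 read 3.50, 4.37 and 4.82 in TCE renal cortex and 5.83, 5.07 and 4.60 in controls, with overlap (-0.94 ± 0.46, adjusted p = 0.422, limma). Gpr182 differed by -0.32 ± 0.30, Lyve1 by 0.14 ± 0.25 and Bmp2 by -0.12 ± 0.07.

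The renal endothelial list had 7 of 10 above and 3 below 0 in renal cortex, with a median of 0.104. Plat read 10.41, 10.09 and 10.39 in TCE renal cortex and 9.81, 9.89 and 10.00 in controls, groups that did not overlap (0.40 ± 0.11, adjusted p = 0.251, limma). In liver, 6 of 8 stood above 0, with a median of 0.317, among them Nostrin (0.32 ± 0.09, adjusted p = 0.248, limma). The lower genes with the smallest p were Igfbp5, an insulin-like growth factor binding protein, in liver (-0.32 ± 0.21), and Gja4, the arterial connexin 37, in renal cortex (-0.42 ± 0.20). Mesenchymal markers also stood higher in TCE liver: the mean of 12 was 5.909 to 6.112 in TCE liver and 5.478 to 5.654 in control liver, with 9 of 11 tested above 0 and a median of 0.332; Cnn1 in the first group and Myh11 in the second lay near the lowest value. Leukocyte markers stood higher in TCE liver, with a mean of 5 genes of 4.839 to 5.437 in TCE liver and 4.574 to 4.727 in control liver (4 of 4 tested above 0, median 0.592, Ms4a1 near the lowest value in both). Erythroid markers stood lower, with a mean of 4 genes of 6.48 to 6.994 in TCE liver and 7.274 to 7.707 in control liver (3 of 3 tested below 0, all 3 at an unadjusted p of 0.05 and 0 after adjustment by limma, median -1.06, Klf1 near the lowest value in both). A sign of RNA quality also differed in liver: the 3′ minus 5′ gap of the Gapdh control probe sets was 1.49 ± 0.25 log2 units in TCE liver and 0.81 ± 0.04 in control liver (SD, n = 3 each; two-sided p = 0.1 by exact permutation, which 3 against 3 arrays cannot go below), against 0.65 ± 0.19 in TCE renal cortex and 0.97 ± 0.11 in control renal cortex (exact permutation p = 0.2). The Actb gap was 5.33 ± 0.31 in TCE liver and 4.64 ± 0.52 in control liver (exact permutation p = 0.3), with overlap. The part of mesenchymal, leukocyte or blood content or of RNA quality in the liver values was not tested.

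The VEGF and angiopoietin list was centred on 0. It had a median of -0.0124 in liver, with 6 above and 7 below 0, and of -0.0093 in renal cortex, with 7 on each side of 0, and 0 of 14 genes had an unadjusted p under 0.05 in either tissue (limma). Vegfa differed by 0.27 in liver and -0.04 in renal cortex, Nrp1 by -0.09 and 0.10, Angpt2 by -0.21 and 0.01, and Tie1 by -0.02 and -0.07. The ligand Vegfb stood lower in TCE liver in groups that did not overlap (-0.52 ± 0.23, adjusted p = 0.405, limma), and Vegfc, a ligand of Flt4, stood at 0.22 ± 0.10. In renal cortex, Hif1a, the oxygen-regulated factor upstream of Vegfa, stood at 0.38 ± 0.15 and Flt4, the lymphatic VEGF receptor, at -0.13 ± 0.12.

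The BMP, SMAD and Id list, which holds the signalling path that controls Id1, had medians of 0.0133 in liver (11 above and 10 below 0) and -3e-04 in renal cortex (10 on each side of 0). Smad4, the shared partner of the BMP and TGF-beta SMADs, read 9.97, 9.87 and 9.90 in TCE renal cortex and 9.67, 9.70 and 9.64 in controls (0.24 ± 0.05, adjusted p = 0.215, limma). Id4 stood lower with TCE in renal cortex (-0.36 ± 0.11, adjusted p = 0.271, limma). Id2 differed there by 0.22 and Id3 by 0.51, with overlapping values, and none of the 4 Id genes passed adjustment. In liver, Acvrl1, an endothelial receptor of BMP ligands, differed by 0.20 ± 0.05 (adjusted p = 0.24, limma). It read 3.90, 3.89 and 3.89 in TCE liver and 3.70, 3.69 and 3.69 in control liver. These values nearly repeat within each group, so its liver level may not be resolved. Id3 stood at -0.32 ± 0.16 in liver, in groups that did not overlap. The liver effect on Id3 minus its renal cortex effect was -0.83 ± 0.31 (adjusted p = 0.213, limma), and Bmp6 differed by 0.02 in liver and -0.02 in renal cortex.

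The Ehd and caveolar genes had medians of 0.213 in liver (6 of 8 above 0) and 0.0921 in renal cortex (5 of 8 above 0), with 0 at an unadjusted p of 0.05 in either (limma). Ehd1 stood at -0.30 in liver and -0.16 in renal cortex, and Cav2, a caveolar coat gene, at 0.54 in liver. Cavin2, also of the caveolar coat, stood at 0.20 ± 0.09 in renal cortex, in groups that did not overlap.

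**Figure D4:**
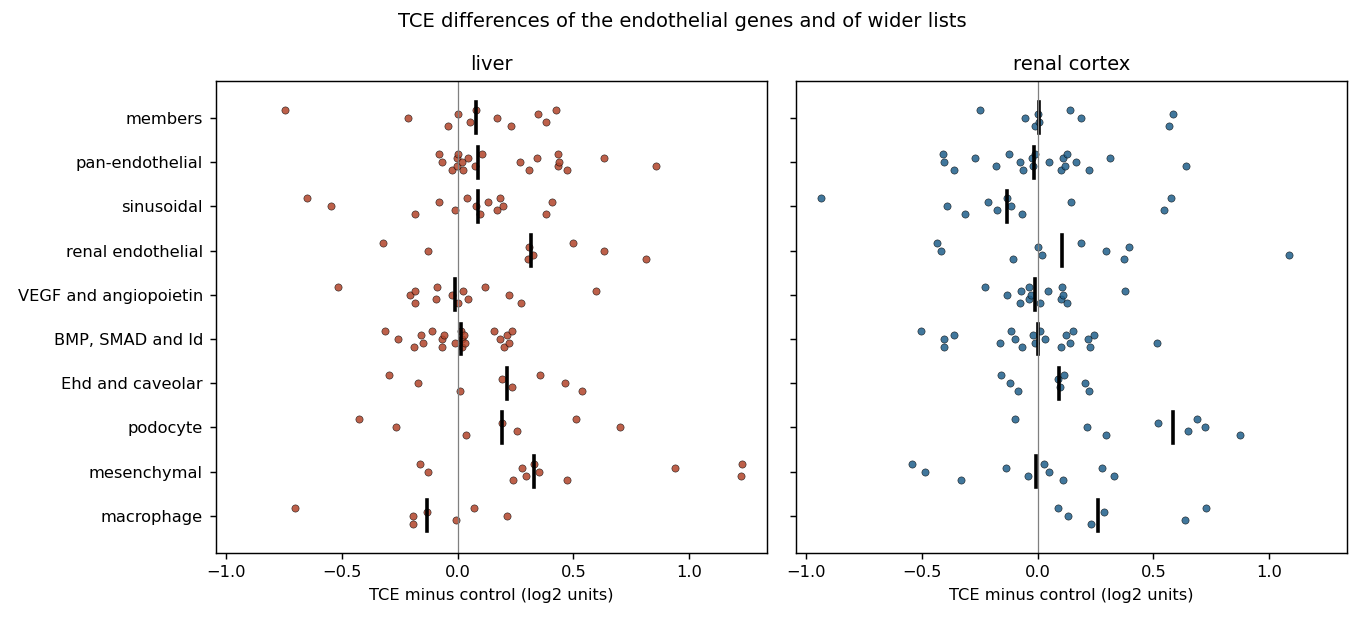
TCE minus control (log2 units, horizontal axis) in liver (left) and renal cortex (right); each point is a gene tested (for the 10 endothelial genes, each probe set), and the bar is the median of its list. The member medians are 0.079 in liver and 0.0042 in renal cortex, where the median is the value of the dim Flt1. The podocyte list in renal cortex has a median of 0.584.

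The 10 genes also varied from rat to rat within groups. In liver, TCE replicate 2 was the highest of the 6 arrays for 5 of 9 genes and control replicate 2 the lowest for 6 of 9 (all members but Flt1). To describe the variation over both tissues, each array's deviation from its group mean was averaged over the 9 genes that passed the filter in both tissues (all but Stab2). It was -0.185, 0.301 and -0.116 in TCE liver and 0.098, -0.105 and 0.006 in control liver. In renal cortex it was 0.046, -0.136 and 0.091 with TCE and 0.038, -0.023 and -0.015 in controls, a narrower range.

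Genes differed in how far they followed this common deviation, taken over the other members on the 12 arrays. Pearson r was 0.798 for Id1, 0.711 for Pecam1, 0.672 for Mmrn2 and 0.64 for Tek. It was 0.42 for Ehd3, 0.321 for Kdr, 0.248 for Emcn and 0.098 for Plvap, and -0.338 for the dim Flt1. The points share arrays, so these are descriptions. TCE liver replicate 2 had the largest mean deviation (0.301), so these r values, and those below, lean most on that array. Of 8185 other genes, those most like the mean deviation over the 12 arrays were Fcgr1a (r = 0.958), Tceal9 (0.956), Lcp1 (0.954), Icam2 (0.948) and Dram1 (0.936). Fcgr1a is a macrophage Fc receptor, Lcp1 a leukocyte actin bundler and Icam2 an adhesion molecule of endothelium and leukocytes.

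Macrophage markers had their largest deviation on the same array. The mean of the 7 macrophage markers was 8.523, 9.603 and 8.654 in TCE liver and 8.966, 8.947 and 9.271 in control liver, so TCE replicate 2 stood highest. Its deviation from the group mean was 0.676 for the macrophage markers and 0.301 for the endothelial genes. These deviations had opposite signs on replicate 1 of control liver and on replicates 1 and 2 of control renal cortex. On every other array they had the same sign. The part of macrophage content in the endothelial values was not tested.

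**Figure D5:**
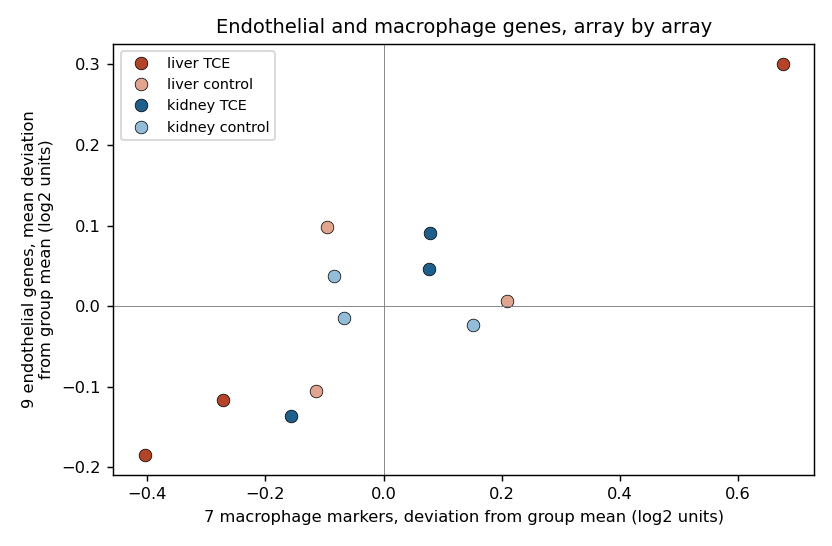
Mean deviation of 9 endothelial genes from the group mean (vertical axis, log2 units) against that of 7 macrophage markers (horizontal axis, log2 units); each point is an array. TCE liver replicate 2 lies alone at the upper right, at 0.676 and 0.301.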

How the data were processed

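Per the labels, RNA was read on GeneChip rat genome arrays. The values, for 31099 probe sets on 12 arrays, are in log2 units as the authors deposited them; the log2 scale was inferred from their range of 2.17 to 16.5. The packages affy and limma were used, per the submitters' processing notes; the sources used here do not give their versions or the background correction, normalization and summary. Precision is limited by 3 arrays in each group.

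Probe sets were named from the platform annotation (20826 with 1 symbol, 436 with several and 9780 with none); 57 control probe sets were left out. Probe sets whose mean over a fit's arrays exceeded the 40th percentile were tested two-sided with limma 3.58.1 in R 4.3.3 (lmFit, eBayes), without covariates, with Benjamini-Hochberg adjustment over all tested and a threshold of 0.05. SE is limma's moderated standard error. Liver and kidney arrays, though of the same rats, were treated as independent where both entered a fit. The fits were tested on simulated data. Gapdh and Actb gaps were tested with exact permutation (scipy 1.17.1). Tables, promoter matches and plots used Python 3.11.15, pandas 2.3.3 and matplotlib 3.10.9.

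Each gene of a wider list was represented by its brightest singly named probe set. Named were all 10 members; per list and TCE comparison the gene with the smallest p in each direction; 14 preset genes, of which Cdh5 and Clec4g were not analysed here; and the 5 genes most like the members' mean deviation. The members and lists were chosen with earlier results of these data known. The labels do not say whether a replicate number marks the same rat in liver and kidney. Deviations of same-numbered liver and kidney arrays correlated at 0.012 to 0.085. Since the labels state no pairs, the numbers were not used as pairs in the main fits. Alternatives covered the filter, scaling, variance model, 1 probe set a gene, the replicate block, a joint fit and leaving out arrays. Leaving out both kidney arrays highest in Alb was added after seeing the data.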

Additional observations from a re-analysis of the deposited data

How the results depend on the processing

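With 3 arrays a group, small differences of dim probe sets (Flt1, Ehd3 and Stab2 in renal cortex) were not resolved. The count of members past an adjusted p of 0.05 was 0 under all alternatives run in liver, renal cortex and for the difference between them; between control tissues it was 9, with 6 under the stricter filter and 10 after centring, where Flt1 gained a call (0.41, adjusted p = 0.00302). The tissue call of Ehd3 was lost between TCE liver and TCE renal cortex (0.82). Direction and side of the threshold were kept for 137 of 146 member values in liver, 126 of 133 in renal cortex, 181 of 197 for the difference and 144 of 146 between tissues.

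Other scalings reversed values near 0. Centring turned Kdr in liver to -0.0081, Pecam1 in renal cortex to 0.0061 and the Stab2 effect difference to -0.022. Quantile normalization turned the effect differences of Emcn to -0.002 and Stab2 to -0.028. Leaving out both kidney arrays highest in Alb turned that of Stab2 to -0.033. Leaving out 1 array at a time gave, in liver, -0.0877 to 0.1053 for Kdr, -0.2814 to 0.2113 for Plvap, -0.0913 to 0.2416 for Stab2 and -0.2973 to 0.5357 for Emcn. In renal cortex it gave -0.0543 to 0.052 for Ehd3, -0.102 to 0.1249 for Pecam1 and -0.0978 to 0.0143 for Tek. For the difference between effects it gave -0.1659 to 0.167 for Stab2, -0.0342 to 0.4585 for Plvap, -0.486 to 0.347 for Emcn and -0.0042 to 0.0791 for Flt1. The cause was not tested.

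With the replicate number as a block, 0 members passed in liver, in renal cortex and for the difference, and 9 between tissues; Id1 and Mmrn2 in renal cortex had an adjusted p of 0.423, and 50 probe sets of all passed for the difference between effects in place of 198. Within a tissue and for the difference, the block joined TCE and control arrays of the same number, which come from different rats. Only between control tissues could it stand for a rat. Of the liver arrays, 5 of 6 correlated best with the kidney array of the same number, a hint from the data and not the design.

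Over all probe sets, liver calls were 0, with 21 without a filter, 339 in the joint fit and up to 1 without 1 array. Renal cortex calls were 0, with 5 without a filter, 1 under the stricter filter and 26 in the joint fit. For the difference they were 198, with 57 for 1 probe set a gene, 6 without both kidney arrays and 40 to 411 without 1 array. Tissue calls were 11513, with 7308 for 1 probe set a gene. At an unadjusted p, liver members numbered 0, with 1 under the block, 3 in the joint fit, 1 when liver TCE replicate 2 was dropped and 2 when replicate 3 of that group was; the difference had 0, with 3 when liver TCE replicate 2 was dropped and 1 when replicate 3 of either liver group was. Over all probe sets these unadjusted counts were 2564 in liver (1546 for 1 probe set a gene), 2697 in renal cortex (1566, and 1794 without both kidney arrays), 3288 for the difference (1861) and 12307 between tissues (7608).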
